A study of Mus musculus with 10 samples.

Results

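Interleukin-1 family cytokines, TNF and IL-6 are the messengers by which macrophages, epithelium and stroma start an inflammatory response. The genes described here are Il1b, Il1a, Il1rn, Il18, Il18bp, Il33, Tnf, Il6, Tnfaip3 and Nfkbia, a set listed by name and not by any measured value. All 10 were found among the 18398 genes of a deposited FPKM table of mouse colon RNA. The libraries came from 5 colon samples of wild-type mice (genotype WT) labelled Pro-inflammatory diet and 5 of wild-type mice labelled Normal diet. The series' title speaks of colitis, but no label says that colitis was induced in any sample, or gives age, sex or strain. Nothing states that the samples came from separate animals, so each p-value is set against the scatter of these samples alone, and that scatter may be technical. FPKM counts fragments per length of gene and per depth of library. Whole counts divided out of the FPKM values, here called reads, came to 15652783 to 18341956 on genes per library.

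Before the diets are compared, 3 features of single libraries need naming, since they touch the values below. Pro-inflammatory diet libraries 2 and 5 had Hoxb13, a homeobox gene known from the distal gut, at 0.417 and 20.9 FPKM. The other 3 libraries on that diet had it at 292 to 341 FPKM, and the normal diet libraries at 211 to 333 FPKM. Normal diet library 4 held 609 FPKM summed over 17 markers of squamous epithelium, the stratified lining found at the anus and skin, and all 17 were highest there. That sum was 7.19 to 17.4 FPKM on the pro-inflammatory diet and 5.79 to 12.9 FPKM in the other 4 normal diet libraries. Dbp, an output gene of the circadian clock, was at 12.4 to 54.3 FPKM on the pro-inflammatory diet, while normal diet libraries 1, 2 and 3 had 1.79, 3.29 and 6.69 FPKM and libraries 4 and 5 had 35.4 and 42.6 FPKM. Colon epithelial markers were abundant in every library, with sums of 6629 to 10309 FPKM on the pro-inflammatory and 5265 to 7490 FPKM on the normal diet.

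IL-1α and IL-1β, encoded by Il1a and Il1b, signal through the same receptor, and Il1rn encodes the receptor antagonist that occupies this receptor without signalling. IL-1β and IL-18 are made as precursors that caspase-1 cleaves, and IL-18 is neutralised by the secreted binding protein of Il18bp. IL-33 is a nuclear alarmin of stromal and epithelial cells. Signals from IL-1 and TNF receptors release the transcription factor NF-kB from its inhibitor IkBα (Nfkbia), and NF-kB in turn induces Nfkbia and Tnfaip3, whose product A20 shuts the pathway down. RNA levels show nothing of precursor cleavage or of secretion.

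The genes fell into an abundant and a scarce set in every library. On the pro-inflammatory diet the mean levels were, from the top, 37.7 FPKM for Nfkbia, 37.1 for Il18, 21.7 for Il1rn and 17.3 for Tnfaip3, and neighbours in this order overlapped between libraries. Below a gap followed Il33 at 2.70, Il18bp at 2.35, Il1b at 1.49 and Tnf at 0.878 FPKM, again with overlapping neighbours. Il1a and Il6 came last at 0.136 and 0.0926 FPKM. On the normal diet Il18 led at 56.2 FPKM, apart from Nfkbia at 34.2, which overlapped with Il1rn at 32.2. Tnfaip3 at 18.9, Il33 at 2.45, Il18bp at 1.32 and Il1b at 0.839 FPKM followed, each apart from the one above. Tnf at 0.591 overlapped with Il1b, while Il1a at 0.117 and Il6 at 0.0309 FPKM closed the order and overlapped with each other. Set among all genes of the table, the mean of Il18 lay above 89.7% of them on the pro-inflammatory and 93.6% on the normal diet, and that of Il6 above 16.4% and 9.69%. These are levels per length, and they carry the length of the authors' gene models. The length implied by the values was 1633 bases for Il18 and 4616 for Il18bp, where the exons of GENCODE M21 cover 1031 and 3026 bases. For Il1rn and Il6 the implied length was the shorter, at 2809 and 1143 bases against 5535 and 2428. Levels of different genes, and ratios between them, are therefore comparable only roughly.

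The stretches before Nfkbia and Il6 are shown because each holds a match to the NF-kB consensus, while the genes stand at opposite ends of the order of levels. Matches were sought on both strands, in the 250 bases before each RefSeq start (GRCm38.p6), and no match overlapped another. The consensus was found before 7.25% of 32851 mouse start sites. Among the 10 genes it was found before Nfkbia, Il6 and a RefSeq start of Tnfaip3 that lies inside its GENCODE span. Nfkbia lies on chromosome 12 (55489410 to 55492647, minus strand, GENCODE M21), Il6 on chromosome 5 (30013114 to 30019981, plus strand) and Tnfaip3 on chromosome 10 (19000910 to 19015657, minus strand). Each is a protein-coding gene, and the 2 stretches are given on the gene's own strand with the match in capitals.
Nfkbia, chr12:55492648-55492897: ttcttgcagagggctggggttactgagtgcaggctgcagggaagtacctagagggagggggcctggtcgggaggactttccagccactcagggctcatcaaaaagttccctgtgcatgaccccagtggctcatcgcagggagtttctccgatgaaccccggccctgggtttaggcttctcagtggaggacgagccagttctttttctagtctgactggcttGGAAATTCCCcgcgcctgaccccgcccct
Il6, chr5:30012864-30013113: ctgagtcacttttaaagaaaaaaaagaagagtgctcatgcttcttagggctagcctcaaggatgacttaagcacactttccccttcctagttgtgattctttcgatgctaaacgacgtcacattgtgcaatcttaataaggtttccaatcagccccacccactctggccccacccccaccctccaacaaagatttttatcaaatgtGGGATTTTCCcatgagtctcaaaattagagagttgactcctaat
The match ended 20 bases before the start of Nfkbia (on the opposite strand) and 35 bases before that of Il6. Before Tnfaip3, of which only the matching letters are given, there were 2 matches. GGGACACCCC started 125 bases before the start, and GGAAATCCCC (a match on the opposite strand) 12 bases before it. The interferon-stimulated response element core GAAANNGAAA and the gamma-activated site TTCNNNGAA were sought in the same way, and occurred before 2.98% and 7.02% of all start sites. Neither was in the window of any of the 10 genes, which says only that these letters are not there. With the same kind of match, Nfkbia stood at 28.8 to 43.5 FPKM and Il6 at 0 to 3 reads per library.

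None of the 10 genes passed the diet comparison. The 7 with a mean of at least 1 FPKM over all libraries (Il1b, Il1rn, Il18, Il18bp, Il33, Tnfaip3 and Nfkbia) were tested with limma on log2(FPKM + 1) among 12345 genes. At an adjusted p under 0.05, 0 of these 7 were called, as were 0% of all genes tested. At an unadjusted p under 0.05 it was 1 of 7, Il1b, where 17.4% of all tested genes passed in either direction. That share of members is near the background and is no result about them. In no member of the 7 were the diets free of overlap, against 3.83% of all genes tested. By direction of the mean, 4 of the 7 were higher, against 47.1% of all genes tested. Nearest to the limit for testing were Il1b, inside it at a mean of 1.16 FPKM over all libraries, and Tnf, outside it at 0.734. Tnf, Il6 and Il1a were read from a fit over all 18398 genes, in which 0% passed adjusted and 13.8% passed unadjusted. Il6 was the member of these 3 with an unadjusted p under 0.05, in the higher direction, as 6.28% of all genes were. All 3 had log2 fold changes above 0, against 46.2% of all genes, and 0 of 3 had diets free of overlap, against 2.88% of all genes in either direction and 1.26% in the higher one.

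**Figure D1:**
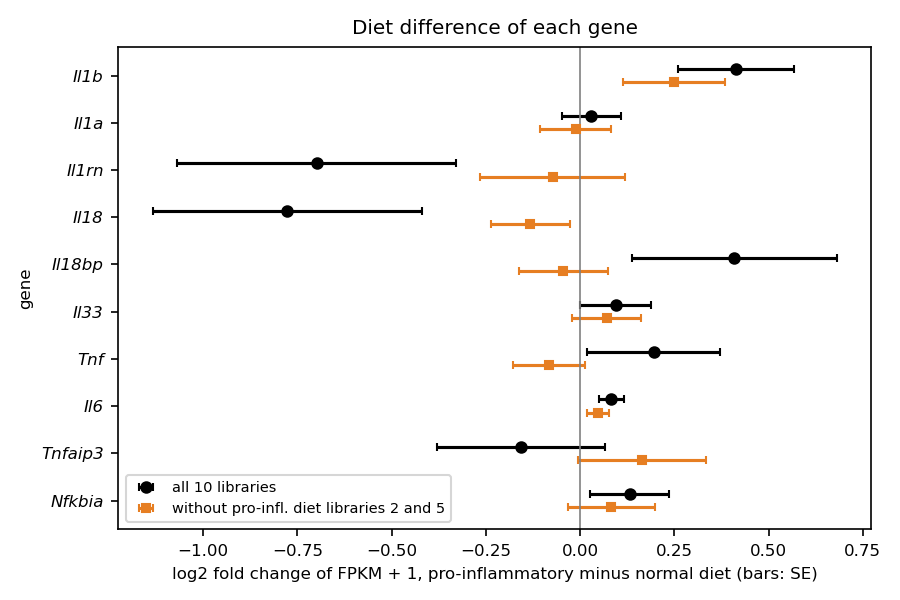
Log2 fold change of FPKM + 1 (pro-inflammatory minus normal diet, x axis) of each of the 10 genes (y axis), from limma, with its SE as a bar. Black points use all 10 libraries and orange squares leave out pro-inflammatory diet libraries 2 and 5, which puts Il18 at -0.13 and Il1rn at -0.073, where all libraries put them at -0.78 and -0.70.

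Il1b (chromosome 2, 129364570 to 129371139, minus strand), the secreted pyrogenic cytokine of activated macrophages, had low values on both diets. It was at 1.54, 2.44, 1.004, 1.02 and 1.44 FPKM in pro-inflammatory diet libraries 1 to 5, against 0.986, 0.612, 0.824, 0.711 and 1.06 FPKM in normal diet libraries 1 to 5. Library 2 was the highest on the pro-inflammatory diet, and only normal diet library 5 reached above the lowest 2 of that diet. The log2 fold change was 0.41 (SE 0.15, limma adjusted p = 0.222). In bulk tissue, more cells of a type and more RNA per cell cannot be told apart. Between 23 and 58 reads per library stood behind these values on the pro-inflammatory diet and 13 to 26 on the normal diet, 174 against 98 in all. As reads per total, that is a ratio of 1.77 (exact 95% interval 1.37 to 2.29, which covers counting error only). A pseudocount of 1 compresses such low values, and voom on the whole reads scaled by total reads gave a log2 fold change of 0.76 (SE 0.29, adjusted p = 0.235). Without pro-inflammatory diet libraries 2 and 5 the limma value was 0.25 (SE 0.13, adjusted p = 0.392). The antisense gene Il1bos overlaps Il1b in GENCODE M21, and the sources used here do not say if reads were counted by strand.

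Il1a (chromosome 2, 129299610 to 129309972, minus strand), an alarmin held inside epithelial cells, was at the edge of detection. Pro-inflammatory diet libraries 1 to 5 held 5, 5, 5, 1 and 7 reads (0.143, 0.145, 0.138, 0.0306 and 0.223 FPKM), against 0, 4, 1, 12 and 3 reads in normal diet libraries 1 to 5 (0, 0.129, 0.0283, 0.345 and 0.0840 FPKM). The 0 of normal diet library 1 allows up to 0.0924 FPKM, the value of 3 reads. The highest value of all was that of normal diet library 4, the library with the squamous epithelial markers, and the part of those cells in it was not tested. Il1a had a log2 fold change of 0.030 (SE 0.078, limma adjusted p = 0.868) over all libraries and 0.099 (SE 0.052, adjusted p = 0.376) without that library. The sign turned to -0.0083 without normal diet library 1, to -0.011 without pro-inflammatory diet libraries 2 and 5, and to -0.090 without normal diet libraries 1, 2 and 3.

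Further ligands of the family appear in the table under older symbols. They are Il1f5, Il1f6, Il1f8, Il1f9 and Il1f10, and the first 4 are now called Il36rn, Il36a, Il36b and Il36g, of the IL-36 branch known from skin and other stratified epithelia. None reached a mean of 1 FPKM. Their sum was 0.0342, 0.929, 0, 0 and 0.159 FPKM in pro-inflammatory diet libraries 1 to 5, against 0, 0.0327, 0, 4.81 and 0 FPKM in normal diet libraries 1 to 5. Normal diet library 4 was again the highest, with Il1f5 at 1.66 and Il1f9 at 1.21 FPKM. Il1f8 was the exception, at 0.795 FPKM in pro-inflammatory diet library 2 and 0.790 in normal diet library 4.

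Il33 (chromosome 19, 29925114 to 29960718, plus strand) varied least among the cytokines with more than a few reads. It was at 2.73, 3.36, 2.30, 2.84 and 2.26 FPKM on the pro-inflammatory diet, against 2.39, 2.21, 2.33, 2.80 and 2.53 FPKM on the normal diet. Libraries 2 and 4 of the pro-inflammatory diet lay above the normal diet range, the other 3 inside it, and the log2 fold change was 0.094 (SE 0.094, limma adjusted p = 0.597).

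**Figure D2:**
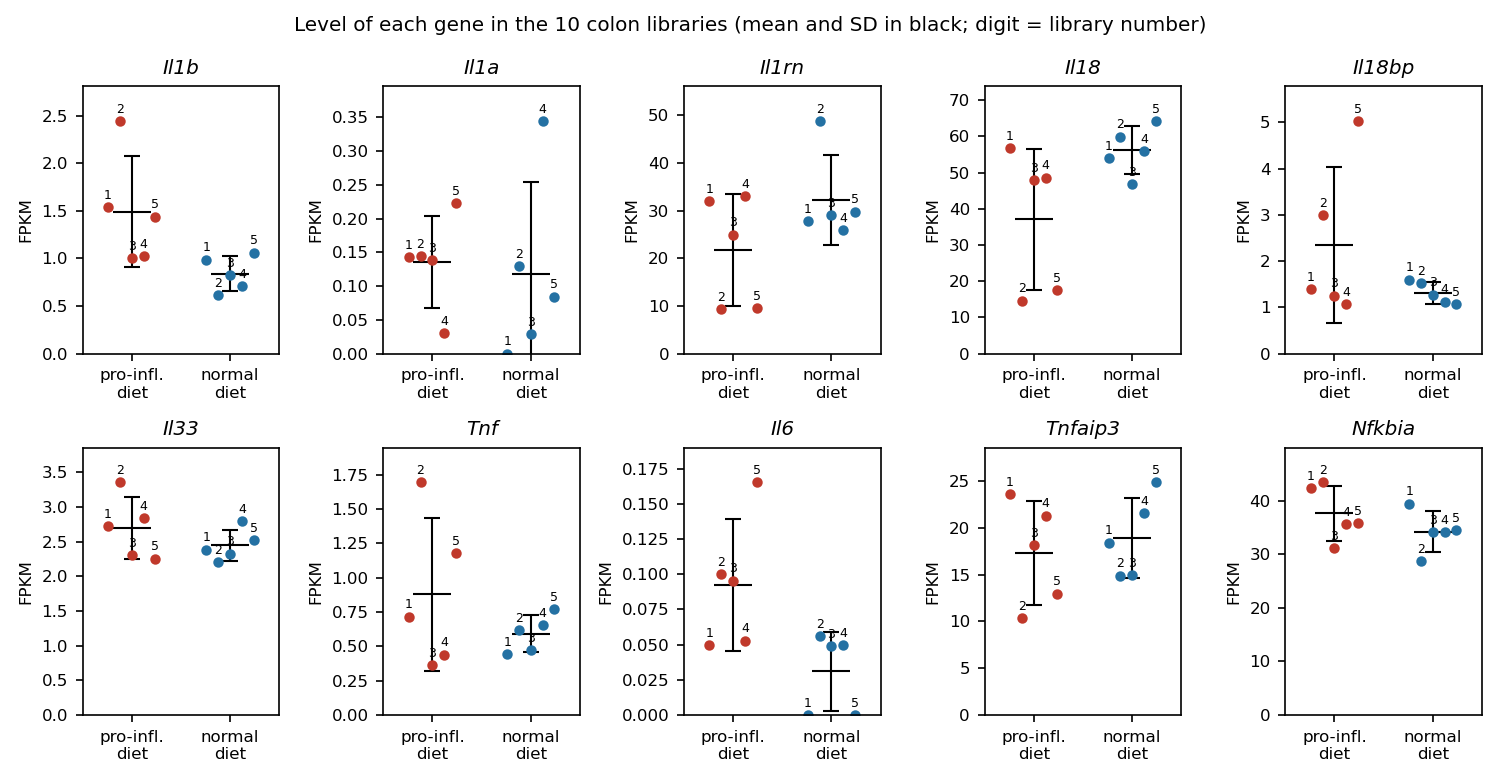
FPKM (y axis, from 0, a different scale in each panel) of each of the 10 genes in the pro-inflammatory diet libraries (red) and the normal diet libraries (blue), with the library number beside each point and the mean and SD in black. Il18, Il1rn and Tnfaip3 are lowest in pro-inflammatory diet libraries 2 and 5, where Il18bp and Tnf are highest, and Il1a is highest in normal diet library 4 at 0.345 FPKM.

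Il18 (chromosome 9, 50554827 to 50581840, plus strand), a cytokine that the colon epithelium makes constitutively, was the most abundant of the interleukins. It was at 56.7, 14.6, 47.9, 48.6 and 17.5 FPKM in pro-inflammatory diet libraries 1 to 5, against 53.95, 59.95, 46.8, 56.0 and 64.3 FPKM in normal diet libraries 1 to 5. Libraries 2 and 5 of the pro-inflammatory diet lay far below all others, and the other 3 lay inside the normal diet range. The mean was 37.1 ± 19.5 FPKM on the pro-inflammatory and 56.2 ± 6.58 FPKM on the normal diet (SD, n = 5 each), with a log2 fold change of -0.78 (SE 0.36, limma adjusted p = 0.294). Without libraries 2 and 5, in which Hoxb13 was lowest, the log2 fold change was -0.13 (SE 0.10, adjusted p = 0.546). The part of what set these 2 libraries apart was not tested. Tex12 and Bco2 lie on the other strand over part of Il18, and stood at 0.509 to 1.48 and 2.64 to 5.97 FPKM on the pro-inflammatory diet and 0.362 to 1.48 and 5.43 to 12.5 FPKM on the normal diet, well below Il18.

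Il1rn (chromosome 2, 24336853 to 24351494, plus strand), the receptor antagonist, had the same 2 low libraries. Its values were 31.9, 9.25, 24.9, 33.0 and 9.54 FPKM on the pro-inflammatory diet, against 27.7, 48.8, 29.0, 25.8 and 29.8 FPKM on the normal diet. Library 2 of the normal diet stood above the rest, and the groups overlapped. The log2 fold change was -0.70 (SE 0.37, limma adjusted p = 0.343), and -0.073 (SE 0.19, adjusted p = 0.871) without pro-inflammatory diet libraries 2 and 5. Against the agonists, Il1rn exceeded the summed FPKM of Il1a and Il1b 19.0, 3.57, 21.8, 31.3 and 5.75 times in pro-inflammatory diet libraries 1 to 5, and 28.1, 65.9, 34.0, 24.5 and 26.0 times in normal diet libraries 1 to 5. The antagonist's RNA was thus the more abundant in all 10 libraries, and the 2 smallest ratios were those of pro-inflammatory diet libraries 2 and 5.

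Il18bp (chromosome 7, 102014885 to 102018690, minus strand), the decoy for IL-18 that interferon-γ induces, ran the other way. It was at 1.39, 2.99, 1.25, 1.07 and 5.03 FPKM on the pro-inflammatory diet, against 1.60, 1.52, 1.27, 1.12 and 1.07 FPKM on the normal diet. Only libraries 2 and 5 of the pro-inflammatory diet exceeded the normal diet range. The log2 fold change was 0.41 (SE 0.27, limma adjusted p = 0.431) over all libraries and -0.044 (SE 0.12, adjusted p = 0.872) without these 2, so its direction rests on them. Il18 over Il18bp, as a ratio of FPKM values, came to 40.7, 4.88, 38.3, 45.2 and 3.48 in pro-inflammatory diet libraries 1 to 5, against 33.8, 39.4, 36.7, 50.03 and 60.2 in normal diet libraries 1 to 5. The cytokine's RNA exceeded that of its decoy everywhere, least in the same pair of libraries. Numa1 shares 80 bases with Il18bp on the other strand and was at 20.1 to 33.1 FPKM on the pro-inflammatory and 20.2 to 29.7 FPKM on the normal diet. It too was highest in pro-inflammatory diet libraries 2 and 5, at 33.1 and 30.6 FPKM. The part of its reads in the Il18bp values was not tested.

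Tnf (chromosome 17, 35199381 to 35202007, minus strand), the founding TNF family cytokine, stayed below 1 FPKM in 8 of the 10 libraries. It was at 0.716, 1.69, 0.362, 0.438 and 1.18 FPKM on the pro-inflammatory diet (21, 49, 11, 12 and 31 reads), against 0.441, 0.617, 0.473, 0.652 and 0.769 FPKM on the normal diet (12, 16, 14, 19 and 23 reads). Libraries 2 and 5 of the pro-inflammatory diet were the highest, and libraries 3 and 4 of that diet the lowest of all 10. Tnf had a log2 fold change of 0.20 (SE 0.18, limma adjusted p = 0.627) with all libraries and of -0.082 (SE 0.096, adjusted p = 0.736) without libraries 2 and 5. The direction turned with these 2 libraries.

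Il6, a cytokine that drives the acute phase response, was barely present. Its reads numbered 1, 2, 2, 1 and 3 in pro-inflammatory diet libraries 1 to 5, against 0, 1, 1, 1 and 0 in normal diet libraries 1 to 5. In FPKM these were 0.0494, 0.1001, 0.0954, 0.0529 and 0.165, against 0, 0.0559, 0.0490, 0.0497 and 0. The absence of reads in normal diet libraries 1 and 5 allows up to 0.160 and 0.145 FPKM, the value of 3 reads, which reaches the levels seen in all other libraries but 1. The ratio of the 9 to the 3 reads, per total reads, was 2.99 with an exact 95% interval of 0.746 to 17.2, an interval that includes 1. The log2 fold change on the FPKM + 1 scale was 0.083 (SE 0.032, limma adjusted p = 0.303, unadjusted p = 0.0273), and eBayes without the mean trend gave an unadjusted p of 0.0527. Without pro-inflammatory diet libraries 2 and 5 it was 0.048 (SE 0.030, limma adjusted p = 0.516), and voom on the whole reads gave 1.17 (SE 0.47, adjusted p = 0.312).

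**Figure D3:**
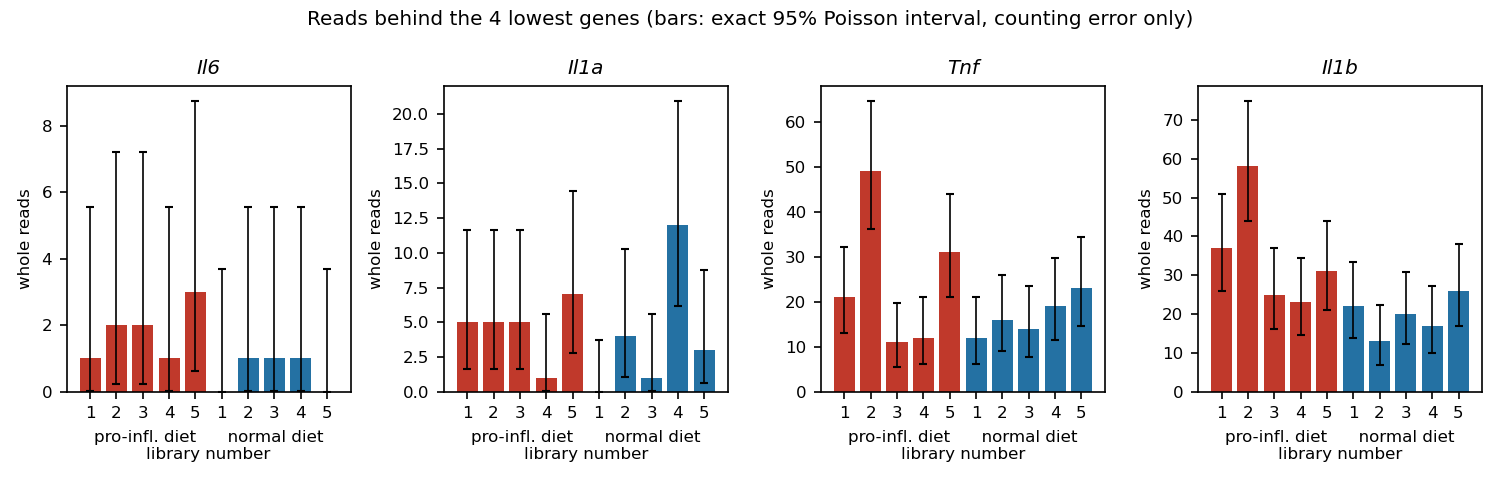
Whole reads (y axis, from 0) of the 4 scarcest genes in pro-inflammatory diet libraries 1 to 5 (red) and normal diet libraries 1 to 5 (blue), with exact 95% Poisson intervals that cover counting error only. Il6 has at most 3 reads in any library and Il1a at most 12, while Tnf and Il1b reach 49 and 58 reads in pro-inflammatory diet library 2.

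Tnfaip3, the gene of the ubiquitin-editing inhibitor A20, was at 23.6, 10.3, 18.2, 21.3 and 12.98 FPKM in pro-inflammatory diet libraries 1 to 5, against 18.4, 14.9, 15.0, 21.6 and 24.9 FPKM in normal diet libraries 1 to 5. Libraries 2 and 5 of the pro-inflammatory diet were the 2 lowest, where Tnf and Il1b were not low. Its log2 fold change was -0.16 (SE 0.22, limma adjusted p = 0.719), and 0.16 (SE 0.17, adjusted p = 0.651) without these 2 libraries, so the sign turned.

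Nfkbia, the gene of IkBα, had the narrowest spread of the abundant members. It was at 42.4, 43.5, 31.2, 35.7 and 35.8 FPKM on the pro-inflammatory diet, against 39.5, 28.8, 34.2, 34.2 and 34.5 FPKM on the normal diet. The ranges overlapped broadly (37.7 ± 5.13 and 34.2 ± 3.80 FPKM, SD, n = 5 each), with a log2 fold change of 0.13 (SE 0.10, limma adjusted p = 0.504), and of 0.083 without pro-inflammatory diet libraries 2 and 5. Both inhibitors are textbook NF-kB targets. Over the 10 libraries their correlation was -0.094 (Pearson's r of log2 values, n = 10, a description only), and in the 5 normal diet libraries alone it was 0.39.

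**Figure D4:**
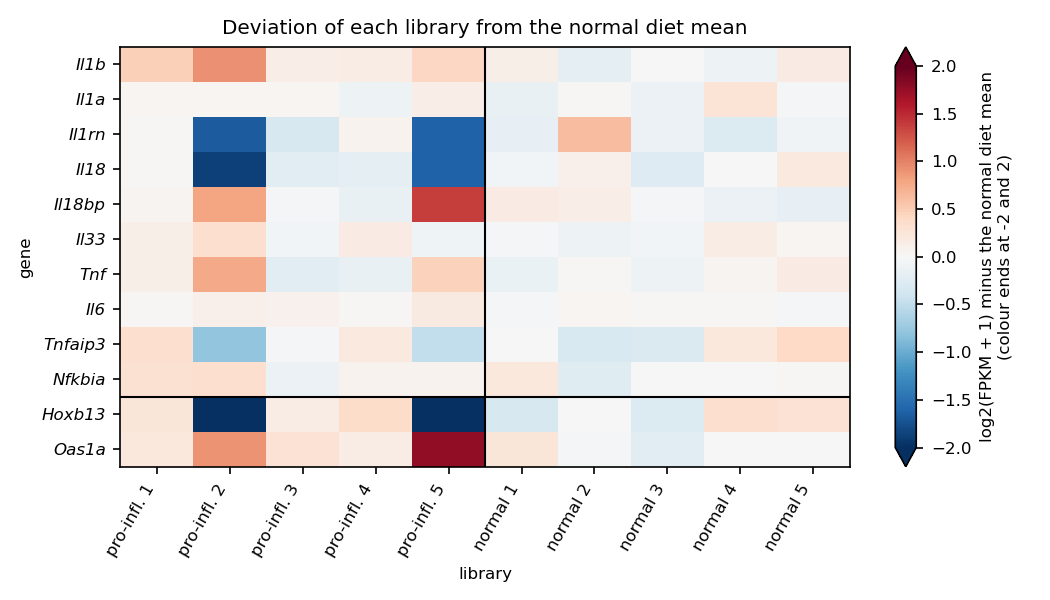
Log2(FPKM + 1) of each gene (rows) in each library (columns, pro-inflammatory diet on the left) minus its normal diet mean, as colour that ends at -2 and 2, with Hoxb13 and Oas1a (an interferon-induced gene) below the line. Pro-inflammatory diet libraries 2 and 5 carry most of the colour, blue for Il18, Il1rn, Tnfaip3 and Hoxb13 and red for Il18bp, Tnf and Oas1a.

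Across the 10 libraries some members went with Il18, some against it and others with neither. Pearson's r of log2 values was 0.94 between Il18 and Il1rn and 0.82 between Il18 and Tnfaip3. For Il18 it was -0.89 with Il18bp, -0.82 with Tnf, -0.78 with Il6 and -0.76 with Il1b. With Il1a, Il33 and Nfkbia it was -0.24, -0.36 and -0.43. Il1b had r of 0.80 with Nfkbia and 0.78 with Tnf. All these points share their libraries, and libraries 2 and 5 of the pro-inflammatory diet lie at the ends of most of them. In the 5 normal diet libraries alone, r was 0.34 for Il18 with Il1rn, -0.22 with Il18bp and 0.82 with Tnf, so the last relation had the opposite sign there. In those 5 libraries r was 0.76 for Il1b with Nfkbia and 0.0041 for Il1b with Tnf. For Il18 it was -0.34 with Il6 and 0.11 with Il1b there.

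The genes most like each member over the 10 libraries, among the 12345 tested, were found by the same r and are given as a description. For Il1b they were Fgr, Hcar1 and Spi1 (r = 0.96, 0.95 and 0.95). Spi1, the myeloid transcription factor PU.1, was at 3.43 to 7.56 FPKM on the pro-inflammatory and 2.62 to 4.28 FPKM on the normal diet. For Il18 they were Rhbdl2, Capn13 and Ptpn3 (0.99 each), and Capn13, a calpain, was at 7.55 to 52.0 FPKM on the pro-inflammatory and 41.6 to 60.3 FPKM on the normal diet. For Il1rn they were Vipr1, Adgra3 and Slc5a3 (0.98 each). For Il18bp they were Usp18, an interferon-induced protease, and the MHC class I genes H2-D1 and H2-K1 (0.99, 0.98 and 0.98), and near-identical MHC genes can share reads. The nearest to Il33 were Wfs1 and Fth1 (0.93 and 0.92), to Tnfaip3 Ccdc93, Fmo4 and Dlg3 (0.97 each), and to Nfkbia Igsf10, Slc12a4 and Ppm1m (0.93, 0.91 and 0.91).

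Markers of the cells that can hold these RNAs moved between libraries too. The sum of 14 macrophage and monocyte markers was 236 to 377 FPKM on the pro-inflammatory and 225 to 320 FPKM on the normal diet, with 10 of the 14 highest in pro-inflammatory diet library 2. Its r with Il1b was 0.82 and with Tnf 0.65 (n = 10). T cell and natural killer markers summed to 21.5, 39.7, 11.4, 11.3 and 29.9 FPKM in pro-inflammatory diet libraries 1 to 5 and to 8.68 to 13.6 FPKM on the normal diet. Their r was 0.88 with Il1b, 0.85 with Tnf and 0.81 with Il18bp. Of 11 neutrophil markers, 4 stayed under 0.5 FPKM in every library, and the granule genes S100a8 and S100a9 were at 0 to 0.437 FPKM on the pro-inflammatory diet and 0 to 3.33 FPKM on the normal diet. Ly6g was at 151, 1.46, 176, 209 and 8.26 FPKM in pro-inflammatory diet libraries 1 to 5, of list sums of 153, 5.87, 177, 210.5 and 11.6 FPKM. On the normal diet Ly6g was at 70.3 to 204 FPKM, of list sums of 71.3 to 212 FPKM. The neutrophil list sum had r of 0.92 with Il18, -0.70 with Il1b and -0.84 with Tnf. Ly6g was the only 1 of the 11 genes with a mean of at least 1 FPKM. These r values thus largely follow 1 gene, and they are no measure of neutrophil content. Smooth muscle markers had lower means on the pro-inflammatory diet for 9 of 9, with 7 at an unadjusted p under 0.05 (9.25% of all genes), and sums of 1980 to 2761 FPKM against 2270 to 3437 FPKM on the normal diet. The colon epithelial sum had r of -0.80 with Il18 and -0.69 with Il1rn. A sum of FPKM follows its most abundant genes, and the list was not of one direction. Of its 11 genes 7 had higher and 4 lower means on the pro-inflammatory diet, where 47.1% of all genes were higher. Adipocyte markers were highest in pro-inflammatory diet library 2 for 7 of 7. Their sum had r of 0.81 with Il1b and 0.78 with Tnf, so such values were not particular to the macrophage and T cell lists. The share of all genes highest in pro-inflammatory diet library 2 was not counted, so the 10 of 14 and 7 of 7 have no background beside them. The part of these cells in the values of the cytokine genes was not tested.

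Receptors and processing genes give the rest of the pathway, from lists written out by pathway. Of 4 tested IL-1 family receptor genes 2 had higher and 2 lower means, where 47.1% of all genes were higher. An unadjusted p under 0.05 was found for 0 of them, against 17.4% of all genes (median log2 fold change -0.12, against -0.013 over all 12345 genes). Il1r1, the signalling receptor of IL-1, was at 5.01, 6.76, 3.62, 3.55 and 5.94 FPKM on the pro-inflammatory diet, against 9.39, 7.77, 7.66, 3.92 and 5.67 FPKM on the normal diet (log2 fold change -0.39, limma adjusted p = 0.368, and -0.61 without pro-inflammatory diet libraries 2 and 5). Il1rl2, the IL-36 receptor, and the co-receptor Il1rap had log2 fold changes of -0.27 and 0.069, and of -0.13 and 0.12 without the same 2 libraries. The receptor subunits of IL-18, Il18r1 and Il18rap, were below 1 FPKM on average, with their 2 highest values in pro-inflammatory diet libraries 2 and 5 (1.08 and 1.25 FPKM, and 0.606 and 0.742 FPKM), against at most 0.655 and 0.306 FPKM on the normal diet.

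Among 15 tested genes of inflammasomes and IL-1 processing, 10 had higher and 5 lower means, and 2 and 3 of these had an unadjusted p under 0.05, where 8.16% and 9.25% of all genes did in these directions. None passed adjusted. Aim2, a cytosolic DNA sensor, was at 6.18 to 7.18 FPKM on the pro-inflammatory diet, against 7.59 to 10.04 FPKM on the normal diet (log2 fold change -0.31, limma adjusted p = 0.173). Naip1, a sensor of the Nlrc4 inflammasome and 1 of several close copies that can share reads, was at 39.3 to 42.9 FPKM on the pro-inflammatory and 44.0 to 48.1 FPKM on the normal diet (log2 fold change -0.16, limma adjusted p = 0.173). These 2 were the members of the list whose diets did not overlap, where 2.07% of all genes tested were lower in that way. Nek7, a kinase needed by the Nlrp3 inflammasome, had -0.27. Without pro-inflammatory diet libraries 2 and 5, Aim2, Naip1 and Nek7 were at -0.29, -0.15 and -0.23. Casp1, the protease itself, was at 95.98, 106, 89.95, 87.55 and 114 FPKM on the pro-inflammatory diet, against 93.9, 75.8, 74.3, 86.1 and 88.5 FPKM on the normal diet, with a log2 fold change of 0.23 (limma adjusted p = 0.243) and of 0.13 without pro-inflammatory diet libraries 2 and 5. The Nlrp3 sensor stayed at 0.108 to 0.645 and 0.0835 to 0.297 FPKM.

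For TNF signalling, 4 of 13 tested genes had higher and 9 lower means, with 1 in each direction at an unadjusted p under 0.05, near the 8.16% and 9.25% of all genes. Fadd, an adaptor of death receptors, was at 8.84 to 11.3 FPKM on the pro-inflammatory and 7.99 to 9.21 FPKM on the normal diet (log2 fold change 0.21, limma adjusted p = 0.191). Adam17, the protease that sheds TNF from the membrane, was at 11.1 to 12.6 and 11.4 to 14.3 FPKM (log2 fold change -0.16, limma adjusted p = 0.26). The receptor Tnfrsf1a was at 35.7 to 45.3 and 39.2 to 55.2 FPKM, far above its ligand.

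In the IL-6 family, 4 of 13 tested genes had higher and 9 lower means, where 47.1% of all genes were higher. The 2 with an unadjusted p under 0.05 were lower, a direction in which 9.25% of all genes passed. Lifr, the receptor of leukaemia inhibitory factor, was at 2.68, 1.80, 1.62, 1.97 and 1.68 FPKM on the pro-inflammatory diet, against 3.52, 3.31, 2.98, 2.09 and 3.11 FPKM on the normal diet (log2 fold change -0.44, limma adjusted p = 0.173). Il11ra1, the IL-11 receptor, had -0.30 (limma adjusted p = 0.184). The shared signal transducer Il6st was at 24.9 to 29.8 FPKM and 25.9 to 32.6 FPKM, and Il6ra at 2.51 to 5.19 and 4.05 to 5.55 FPKM. RNA of the receptor chains was thus present in the tissue, where RNA of the ligand was not seen beyond a few reads.

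Downstream, 7 of 13 adaptors and kinases of IL-1 and Toll receptors had higher means and 6 lower, where 47.1% of all genes were higher. At an unadjusted p under 0.05 there were 0, against 17.4% of all genes (median log2 fold change of the list 0.00012). In this list Tab1, Tollip and Map3k7 had the smallest p, with log2 fold changes of 0.16, -0.049 and -0.037. NF-kB and IkB proteins had 5 of 15 higher, 10 lower and 0 at an unadjusted p under 0.05, beside the same shares of all genes. Bcl3, a nuclear IkB protein, was at 17.7 to 30.7 FPKM on the pro-inflammatory diet and 24.4 to 60.4 FPKM on the normal diet, with the highest value in normal diet library 2. Ikbke and Chuk, kinases of the pathway, had log2 fold changes of -0.21 and 0.084, and Ikbke had -0.41 (limma adjusted p = 0.234) without pro-inflammatory diet libraries 2 and 5. Of 15 feedback inhibitors, 7 were higher and 8 lower, and 1 had an unadjusted p under 0.05, a smaller share than the 17.4% of all genes. That 1 was Otulin, a deubiquitinase of linear chains, at 13.1 to 15.0 FPKM on the pro-inflammatory and 10.3 to 13.3 FPKM on the normal diet (log2 fold change 0.25, limma adjusted p = 0.173). Rnf11 and Tnip1, partners of A20, had -0.19 and -0.22, and the Tnip1 value was -0.034 without pro-inflammatory diet libraries 2 and 5.

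Inducible targets of NF-kB gave 11 higher and 7 lower of 18 tested, where 47.1% of all genes were higher (median log2 fold change 0.062). The 1 gene at an unadjusted p under 0.05 was higher, and 8.16% of all genes passed in that direction. Ccl5, a T cell chemokine, was at 6.78, 27.1, 5.01, 5.22 and 20.4 FPKM on the pro-inflammatory diet, against 4.23, 5.52, 3.78, 3.73 and 3.33 FPKM on the normal diet (log2 fold change 1.14, limma adjusted p = 0.219), and its log2 fold change was 0.39 without libraries 2 and 5. Saa3, an acute phase protein, was at 37.8 and 19.8 FPKM in libraries 2 and 5 and at 0.513 to 0.569 in the other 3, against 0 to 0.737 FPKM on the normal diet. Nos2, the inducible nitric oxide synthase, was at 12.2 and 5.79 FPKM in the same pair, against at most 4.54 FPKM on the normal diet, in library 4. The neutrophil chemokines Cxcl1, Cxcl2 and Cxcl5 stayed below 1 FPKM in every library, like Il6. Ier3 had a log2 fold change of 0.16 (limma adjusted p = 0.401), and of 0.081 without pro-inflammatory diet libraries 2 and 5.

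**Figure D5:**
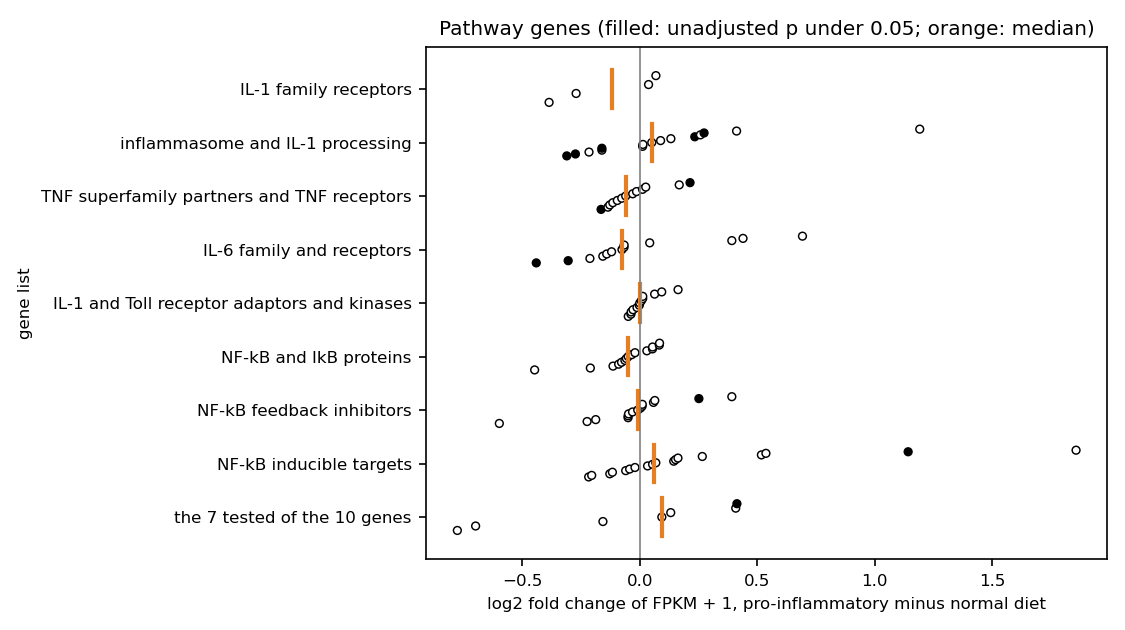
Log2 fold change of FPKM + 1 (pro-inflammatory minus normal diet, x axis) of each tested gene in 8 pathway lists and of the 7 tested members (rows), filled where the unadjusted p was under 0.05, with the median of each list in orange. The medians lie between -0.12 and 0.094, and the 2 genes past 1 among the targets and the 1 among the processing genes are Saa3, Ccl5 and Gzma.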

How the data were processed

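Per the labels' protocols, only RNA of sufficient integrity was used, in a strand-marking kit for polyadenylated RNA with paired-end Illumina reads. Per the submitters' processing notes, the tools were DESeq, HTSeq, StringTie, Cufflinks, Bowtie2, HISAT2 and Trimmomatic, with the build mm10 and no role given for each. The authors deposited 1 table of FPKM per gene symbol and sample, and the sources used here do not describe the step from counts to FPKM. The steps between a gene's FPKM values could be divided into whole reads, to a tolerance of 0.001 read, in 18398 of 18398 genes. A gene above 0 in a single library always divides, as 1 read, so this count is no check on such genes. A check on simulated reads left out genes with as few reads as Il6. The most similar libraries differed by a mean chi-square of 11.4 per gene, so none was counted as a copy.

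The test was limma 3.58.1 (R 4.3.3) applied to log2(FPKM + 1) of genes with a mean of at least 1 FPKM (eBayes with trend, Benjamini-Hochberg over all genes tested, threshold 0.05), after a check on simulated data. Members under that mean were read from the same fit over all genes. The members, lists and settings were chosen with earlier results of these data known. Named genes were all members, the 3 smallest p of each pathway list, those without overlap between diets, and the 3 genes most correlated with each tested member. Some genes that this rule picks are not reported here. Others named (Casp1, Nlrp3, Il6st, Il6ra, Il18r1, Il18rap, Nos2, Cxcl1, Cxcl2, Cxcl5, Gzma and marker genes) were chosen after their values were seen. Positions are from GENCODE M21 (GRCm38, the assembly of mm10) and start site sequences from RefSeq GRCm38.p6, 1-based. Alternatives changed the pseudocount, filter, scaling, variance model, weights, test and libraries.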

Additional observations from a re-analysis of the deposited data

Results flagged for a closer look

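In 20 groups of 5 values (10 genes on 2 diets), 1 library lay far from the other 4 by Dixon's test at 95%, and chance gives about 1 in 20. It was Il1rn in normal diet library 2, at 48.8 FPKM, where the other 4 normal diet libraries had 25.8 to 29.8 FPKM. Without it the log2 fold change of Il1rn was -0.54 (SE 0.39, limma adjusted p = 0.524), against -0.70 with it. The same library had the highest Bcl3 (60.4 FPKM) and the lowest Il1b (0.612 FPKM) of the 5 on that diet.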

How the results depend on the processing

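No tested gene was called in either direction under any of 23 other settings, most of which tested the same 12345 genes. No member passed (smallest limma adjusted p = 0.176, Il18 without pro-inflammatory diet library 1). Of 230 values for the 10 members, 222 kept their direction and 8 turned it. Leaving out libraries 2 and 5 of the pro-inflammatory diet gave log2 fold changes of -0.011 for Il1a, -0.044 for Il18bp, -0.082 for Tnf and 0.16 for Tnfaip3. Tnfaip3 was at 0.070 with array weights, and Il1a at -0.090 without normal diet libraries 1, 2 and 3. Leaving out single libraries gave -0.0083 to 0.099 for Il1a and -0.28 to 0.0014 for Tnfaip3. Single libraries also moved Il18 (-0.98 to -0.50), Il1rn (-0.89 to -0.46), Il18bp (0.16 to 0.55), Il33 (0.033 to 0.14), Tnf (0.053 to 0.30) and Nfkbia (0.073 to 0.20). The cause was not tested. With the replicate block, for numbers that share only a digit (same-numbered libraries deviated with r of -0.26 to 0.061, and 0 of 5 were nearest to their own number), 0 genes were called. Unadjusted, 223 to 1321 genes were higher and 279 to 1566 lower across settings. Voom with TMM scaling was not run, and voom scaled by total reads, chosen after seeing the data, took its place. Depth limits Il6 and Il1a, whose values rest on at most 3 and 12 reads per library.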
